A study of Saccharomyces cerevisiae with 40 samples.

Results

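The genes described here encode factors that build ribosomes, the nucleolar and nuclear proteins that process ribosomal RNA (rRNA) and assemble it with ribosomal proteins. They were chosen by symbol alone: every gene named NOP, UTP or RRP with a number, NOC or NSA with a digit, and in addition ENP1, ENP2, IMP3, IMP4, DIM1, EBP2 and NUG1. The rule found 65 genes among 5625 measured on either of 2 array platforms, of which 64 lay on both. NOP10 lay on the Agilent arrays only. By role, 20 act in assembly of the large subunit, 3 in late steps of the small subunit, 7 in the exosome and 4 in the core of small nucleolar ribonucleoproteins (snoRNPs). The other members belong to the small subunit processome, with 6 in its UTP-A complex, 4 in UTP-B, 2 in UTP-C and 19 elsewhere in it.

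In yeast, RNA polymerase I makes a long precursor rRNA in the nucleolus. Box C/D snoRNPs and the processome bind the precursor as it is made, fold it, and allow the cuts that release the small subunit part. Large subunit factors then mature the other part, and the exosome, a complex of 3'-to-5' RNases, trims and removes spacer RNA. Genes of these factors and ribosomal protein genes are known as sets whose transcripts move together when yeast growth or nutrients change.

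All cells were Saccharomyces cerevisiae of the BY4741 background (MATa, his3, leu2, met15, ura), grown in synthetic complete medium, and each treated culture was compared with an untreated part of the same culture. On cDNA arrays, which used poly(A)-selected RNA, the parent strain received arsenite (AsIII) at 1 mM for 30 min, in 2 culture pairs, or at 100 μM for 30 min, 2 h or 4 h, in 1 culture pair each. On Agilent oligonucleotide arrays, which used total RNA, the parent received 100 μM for 2 h, and so did strains that lack YAP1, CAD1, RPN4 or ARR1. These genes encode the transcription factors Yap1, Cad1 (Yap2) and Arr1 (Yap8) of the AP-1-like family and Rpn4, the activator of proteasome genes. Another set of Agilent arrays compared each untreated deletion strain with the untreated parent.

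Each platform contributed 20 arrays, each with a pair of RNAs in different dyes, in both orientations for every condition. The pair was treated and untreated RNA on the cDNA arrays and on 12 Agilent arrays, and untreated deletion and parent RNA on the other 8 Agilent arrays. Each culture pair had 4 cDNA arrays, the parent on Agilent had 4, and every other Agilent condition had 2. The 4 parent arrays were taken as 2 dye-swap pairs in array order. The labels name neither the pairing nor separate cultures, so the p-values measure a spread that may be technical. On the untreated arrays the deleted gene itself had log2 ratios of -4.05 and -4.66 for YAP1, -3.94 and -5.57 for CAD1, -3.62 and -4.46 for RPN4, and -0.95 and -3.60 for ARR1. A gene was called higher or lower when its adjusted p in limma, Benjamini-Hochberg over all genes of the platform, was under 0.05. Shares of all genes called are given for this fit only, not for alternatives such as 1 dye, a block or arrays as replicates. Ratios are given as log2, so that 1 is a doubling. Precision is limited by how few arrays there are.

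On the cDNA arrays, 8 of 64 ribosome biogenesis transcripts rose and 0 fell after 1 mM AsIII for 30 min, led by IMP4 and RRP7. Of all 5540 genes 9.69% were called higher and 7.09% lower, so that the count higher was near the share of all genes. With each array as a replicate, 32 members were higher and 3 lower. That fit counts arrays of the same culture pair as independent, and the share of all genes it called is not given here. The median member was at 0.30 against 0.02 for all genes. At an unadjusted p under 0.05 the counts were 21 higher and 1 lower, against 1091 and 965 of all 5540 genes. On all 8 arrays the member median, between 0.13 and 0.46, was above that of all genes, which lay between -0.04 and 0.06. Ribosomal protein transcripts went the other way on all 8 arrays, with array medians between -1.79 and -0.07.

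Most of the genes that rose belong to the small subunit processome. IMP4, a U3 snoRNP protein that binds Mpp10 and Imp3, had ratios of 1.63, 1.88, 1.68 and 1.56 in the first culture pair and 1.64, 1.95, 1.49 and 1.87 in the second. All 8 arrays were high, and the culture pairs overlapped. The fitted ratio of IMP4 was 1.71 (SE 0.20, limma adjusted p = 0.00828), or 3.28-fold. RRP7, a UTP-C subunit, gave 1.20, 1.22, 2.23 and 2.05 and then 0.95, 0.94, 1.37 and 1.81, with a fitted ratio of 1.47 (SE 0.22, limma adjusted p = 0.0143). In each culture pair, RRP7 was lower on both arrays with treated RNA in Cy3 than on both with it in Cy5. UTP7, a processome protein, rose by 1.40 and UTP18 of UTP-B by 1.24. RRP9, a U3 snoRNP protein, rose by 1.08 and NOP19 of the processome by 0.84. NOP53, a late large subunit factor, rose by 0.98. The 7 genes named so far were above 0 on all 8 arrays. ENP1, which takes part in small subunit export, was called at 0.88 but was above 0 on only 6 of 8. With the treated RNA in Cy3 its ratios were 1.45, 1.95, 1.02 and 1.61, and in Cy5 they were 0.73, -0.01, -0.10 and 0.40.

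By role, median ratios at 1 mM were 0.48 for the 19 other processome genes, 4 of which rose, 0.42 for the 20 large subunit genes, 1 of which rose, and 0.07 for the 7 exosome genes, none of which was called. The shares of all genes were 9.69% higher and 7.09% lower. UTP-A had a median of -0.08 with none of 6 called, and its highest and lowest members were UTP15 at 0.23 and UTP4 at -0.28. The snoRNP core ranged from NOP56 at 0.60 to NOP1, the fibrillarin methyltransferase, at -0.38, also with none called. The lowest member of all, NOC4, a partner of Nop14 in the small subunit, was at -0.74 and did not pass the test. NOC4 was below 0 on all 8 arrays, from -1.06 to -0.38.

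The lower dose gave fewer calls. After 30 min at 100 μM, 0 of 64 members were called higher and 0 lower, against 0% and 0% of all genes, and 0 and 1 passed at an unadjusted p under 0.05. Of all genes, 60 and 86 passed at that limit. Members hardly correlated between these 4 arrays (Pearson r over 64 genes from -0.26 to 0.36, a description across genes). The highest members were UTP14, which activates a helicase of the processome, at 0.59 and the exosome core subunit RRP40 at 0.57. The lowest were UTP4 at -0.75 and RRP43 at -0.34, and none of these passed. The UTP4 value came from arrays at 0.02, 0.13, -2.76 and -0.40, of which only the value of -2.76 was far from 0.

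After 2 h at 100 μM, UTP7 rose and no other member was called, 1 of 64 higher and 0 lower, beside 3.75% and 2.18% of all genes. UTP7 had ratios of 1.78, 1.26, 1.60 and 1.56, all above its 4 ratios at 30 min, which ran from -0.33 to 1.20. Its fitted ratio was 1.55 (SE 0.29, limma adjusted p = 0.0470), which is 2.93-fold, and it was not called on the Cy3 arrays alone. NOP2, a methyltransferase of large subunit rRNA, was next at 1.16 (arrays 1.19, 1.02, 1.30 and 1.15) and did not pass. At the other end NOP1 was at -0.96, with arrays at -0.18, 0.43, -2.59 and -1.51 that split by dye, and the large subunit factor NOC2 was at -0.77. Neither passed. The median member was at 0.15, above the -0.06 of all genes, while ribosomal protein genes had a median of -1.76 and 32 of 133 fell.

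After 4 h none of the members was called in either direction, beside 0.0542% of all genes higher and 0% lower, and 1 and 3 members passed at an unadjusted p under 0.05. Of all genes, 348 and 384 passed at that limit. The median member was at -0.23 against -0.04 for all genes, and 18 of 64 were above 0. UTP14 at 0.80 and NOP56 at 0.74 were highest, and RRP5, which acts in assembly of both subunits, at -1.37 and UTP11 of the processome at -0.82 were lowest. RRP5 had arrays at -1.18, 0.09, -1.17 and -3.22, so its level rests on a wide range. UTP11 was even across the arrays, at -0.69, -0.91, -0.82 and -0.84. The snoRNP core had a median of -0.75 at 2 h and of 0.73 at 4 h, which was not tested as a group. Ribosomal protein genes also changed sign, with a median of 0.96 at 4 h and 0 of 133 called.

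No difference between these conditions was called by limma for any gene on the cDNA arrays, member or not (471 higher and 389 lower of all genes at an unadjusted p under 0.05 from 30 min to 2 h, 590 and 631 from 2 h to 4 h, 516 and 275 for the dose), so the courses of single members are given as values. The median member difference was -0.04 from 30 min to 2 h, with 2 members higher and 1 lower at an unadjusted p under 0.05. It was -0.34 from 2 h to 4 h, with 1 higher and 7 lower. From 30 min to 2 h the highest differences were those of UTP7 at 1.33 and NUG1, a nucleolar GTPase of the large subunit, at 1.23, and the lowest those of NOP56 at -1.19 and NOP1 at -1.06. From 2 h to 4 h NOP56 at 1.497 and NOP1 at 1.29 were highest, and UTP7 at -1.85 and IMP4 at -1.56 lowest. IMP4 had ratios of 0.64 to 1.24 at 2 h and of -0.82 to -0.36 at 4 h, which did not overlap. For 1 mM minus 100 μM at 30 min the median was 0.12, with 6 higher and 1 lower at an unadjusted p under 0.05, and IMP4 at 1.60 and RRP7 at 1.20 were highest, with NOC4 at -0.87 and RRP40 at -0.70 lowest.

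**Figure D1:**
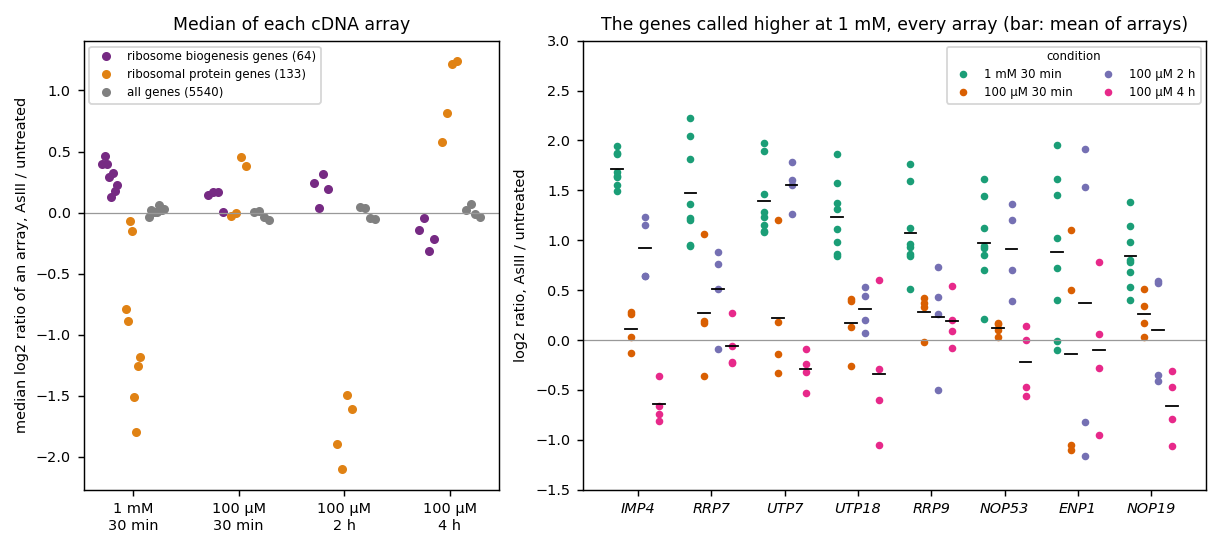
The left panel plots the median log2 ratio (AsIII over untreated) of each cDNA array for 64 ribosome biogenesis genes, 133 ribosomal protein genes and all 5540 genes. The right panel shows every array value of the 8 members called at 1 mM in the 4 conditions, with bars at the mean of the arrays; IMP4 at 1 mM lay between 1.49 and 1.95 on all 8 arrays.

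In the parent strain on the Agilent arrays, 100 μM AsIII for 2 h went with large rises of a few ribosome biogenesis transcripts. IMP4 rose 12.0-fold, ENP1 8.01-fold, NOP13, a nucleolar RNA-binding protein of pre-ribosomes, 6.49-fold and RRP7 5.71-fold. In all, 30 of 65 members were called higher and 14 lower. Of all 5598 genes, 34.7% were called higher and 42.7% lower, so that a call by itself is common here. The median member was at 0.17 and the median gene at -0.10, and 15 members were at least 2-fold up against 1 that was 2-fold down (644 and 775 of all genes).

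The values of the strongest members were close across the 4 parent arrays. IMP4 had ratios of 3.50, 3.37, 3.39 and 4.05, with a fitted ratio of 3.58. ENP1 had 2.91, 3.47, 3.01 and 2.62 (fitted 3.00), and RRP7 had 2.49, 2.42, 2.70 and 2.45 (fitted 2.51). The lowest array of each of these 3 genes was above 2.4, and each was called. NOP13 was more spread, at 3.13, 2.68, 3.06 and 1.93 (fitted 2.70). RRP14, a nucleolar factor of the large subunit, was tight at 1.45, 1.61, 1.54 and 1.70. All fitted parent ratios had the same SE, 0.12, because limma estimated a single SD of 0.17 for all genes from the 2 dye-swap pairs. A gene whose arrays disagree is therefore given too small an error: NOC4 had 1.12, 0.31, -0.27 and -1.12 and the same SE.

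By role, UTP-B had 3 of 4 genes called higher and a median of 1.02, beside 34.7% of all genes called higher and 42.7% lower. UTP6 was at 1.53 and UTP18 and UTP13 at 1.03 and 1.02, while UTP21 was at -0.02 and was not called. UTP6 arrays ranged widely, at 2.20, 1.76, 1.43 and 0.74. UTP-C held RRP7 and UTP22, which was at -0.14 and was not called, for a median of 1.19. UTP-A had 2 of 6 genes called higher, UTP9 at 0.65 and UTP15 at 0.55, and 2 lower, UTP10 at -0.37 and UTP8 at -0.36. These counts were near the shares of all genes. Of the 19 other processome genes 10 rose and 4 fell, from IMP4 down to UTP25 at -1.07. IMP3, which binds Mpp10 together with Imp4, was at -0.14 and was not called. UTP25 was even across the 4 arrays, with its lowest at -1.15, and UTP20, a large processome scaffold, was at -0.76. In the snoRNP core, NOP58 rose to 1.35 (arrays 0.99, 1.56, 1.17 and 1.67) and NOP1 to 0.26. Its partner in the box C/D particle, NOP56, was at 0.22 and was not called, nor was NOP10 of the box H/ACA particle at -0.12.

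Of the 20 large subunit genes 11 rose and 4 fell. Below NOP13 and RRP14 came NOP2 at 1.16, NUG1 at 1.14 and NOP53 at 0.89. The 4 that fell were NOC3, a partner of Noc2, at -0.98, NOP8 at -0.73, NSA1 at -0.54 and NSA2 at -0.44. None of the 7 exosome members rose and 4 fell, with a median of -0.42, beside 34.7% of all genes higher and 42.7% lower. Of 10 listed exosome subunits and cofactors outside the symbol rule, 4 rose and 4 fell. MTR4 is not in that list and was counted with the other assembly factors. RRP42 had ratios of -0.89, -1.07, -0.71 and -1.15 and RRP6, the nuclear exonuclease attached to the exosome, had -1.04, -0.89, -0.86 and -0.99. All 8 of these values were below -0.7, and the fitted ratios were -0.95 for both genes. The core subunits RRP40 and RRP46 fell by 0.50 and 0.42. RRP43, the highest of the 7, was at 0.00.

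**Figure D2:**
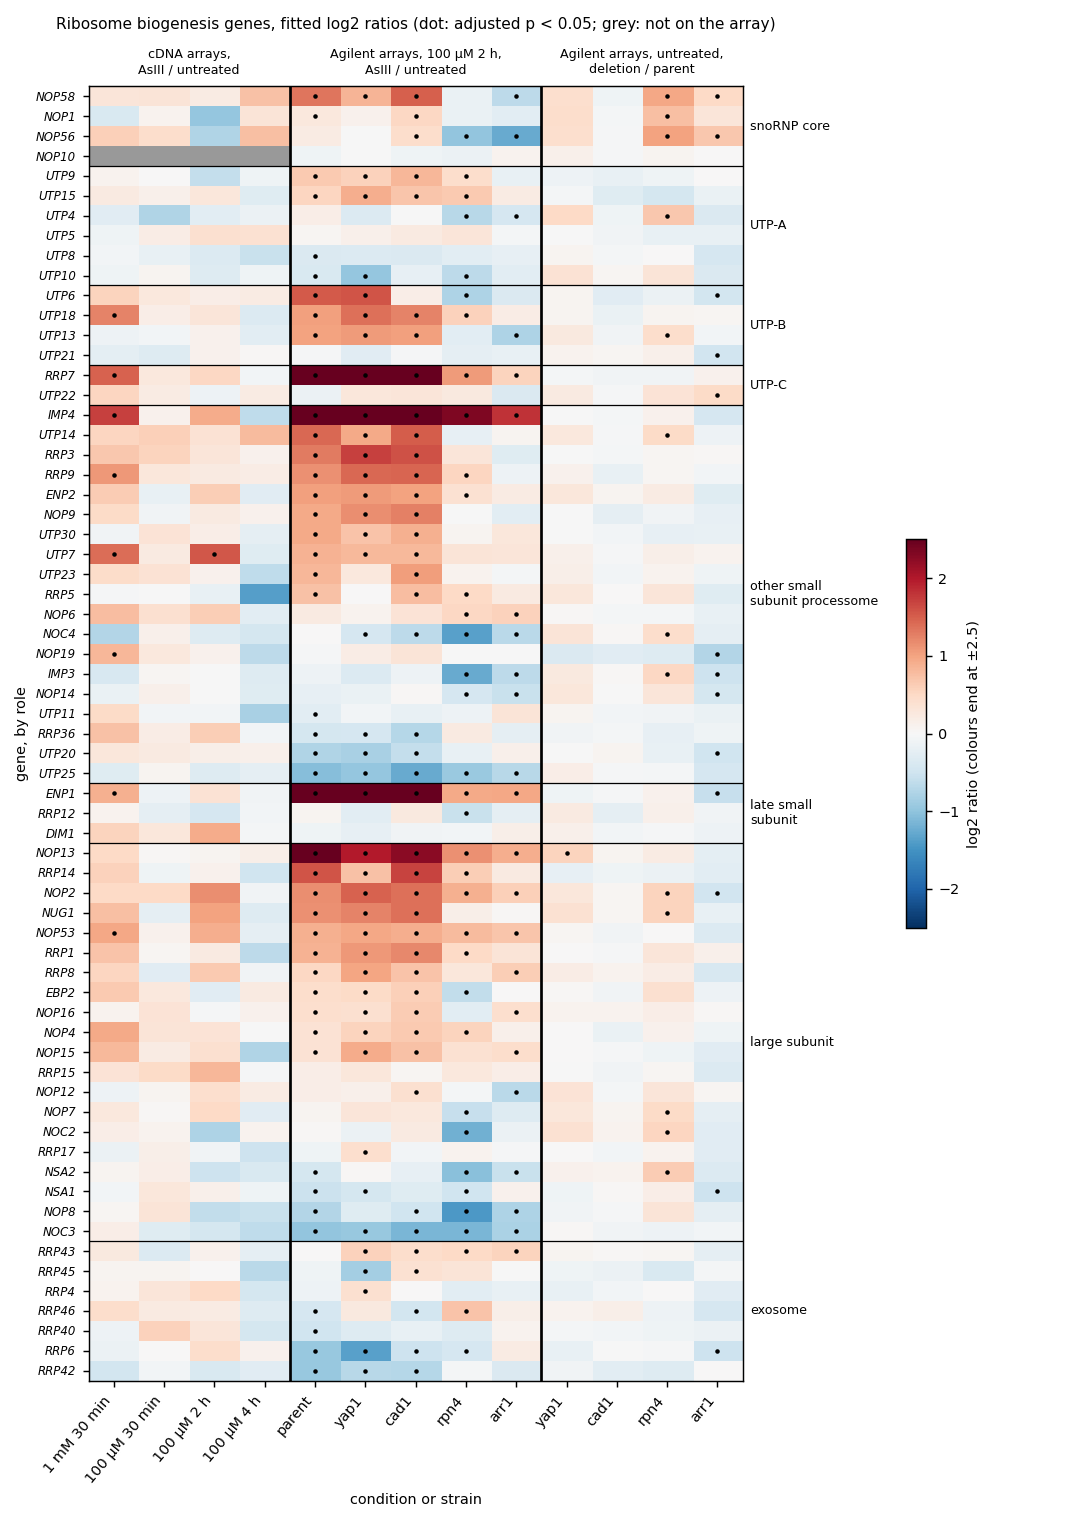
Rows are the 65 genes grouped by role and ordered by their parent ratio, and columns are the 4 cDNA conditions, the 5 strains with AsIII and the 4 untreated comparisons; colour gives the fitted log2 ratio, with the scale ending at 2.5 in either direction, and dots mark adjusted p under 0.05. The rows of IMP4, ENP1, NOP13 and RRP7 are red in all 5 strains, and the columns of rpn4 and arr1 are paler or bluer than those of the parent, yap1 and cad1.

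The yap1 and cad1 deletion strains with AsIII had the same 4 leading genes as the parent, IMP4, ENP1, RRP7 and NOP13. In yap1, 30 members rose and 10 fell (30.5% and 36.0% of all genes), with a median of 0.27. In cad1, 33 rose and 9 fell (31.9% and 36.0% of all genes), with a median of 0.37. In the rpn4 and arr1 strains the rises were fewer. In rpn4, 18 rose and 17 fell (24.4% and 29.9% of all genes), and in arr1, 11 rose and 12 fell (23.2% and 26.9% of all genes). The median member was at 0.00 in both, while 3 members in rpn4 and 1 in arr1 were at least 2-fold up, against 14 in yap1 and 17 in cad1. Of all 5598 genes, 437 in rpn4 and 312 in arr1 were at least 2-fold up, against 649 in yap1 and 733 in cad1.

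IMP4 was the highest member in all 5 strains. Its 2 arrays read 3.51 and 4.75 in yap1, 3.76 and 4.14 in cad1, 2.02 and 2.64 in rpn4, and 1.48 and 2.14 in arr1. The arrays of rpn4 and arr1 overlapped each other and all lay below the lowest parent array, 3.37. ENP1 was at 3.55 and 3.15 in yap1 and cad1 but at 0.75 and 1.14 on the arrays of rpn4 and at 0.61 and 1.33 on those of arr1. RRP7 was at 3.49 and 3.42 in yap1, at 2.57 and 2.68 in cad1, at 1.24 and 0.88 in rpn4 and at 0.66 and 0.47 in arr1. For both genes, no array of rpn4 or arr1 reached the lowest array of the parent. In all, 6 members were called higher in all 5 strains (ENP1, IMP4, NOP13, NOP2, NOP53 and RRP7) and 2 were lower in all 5 (NOC3 and UTP25). In a single strain, between 23.2% and 34.7% of all genes were called higher and between 26.9% and 42.7% lower. The share of all genes called in all 5 strains was not counted. NOP10, which only these arrays measured, was between -0.15 and 0.09 in the 5 strains and was called in none.

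**Figure D3:**
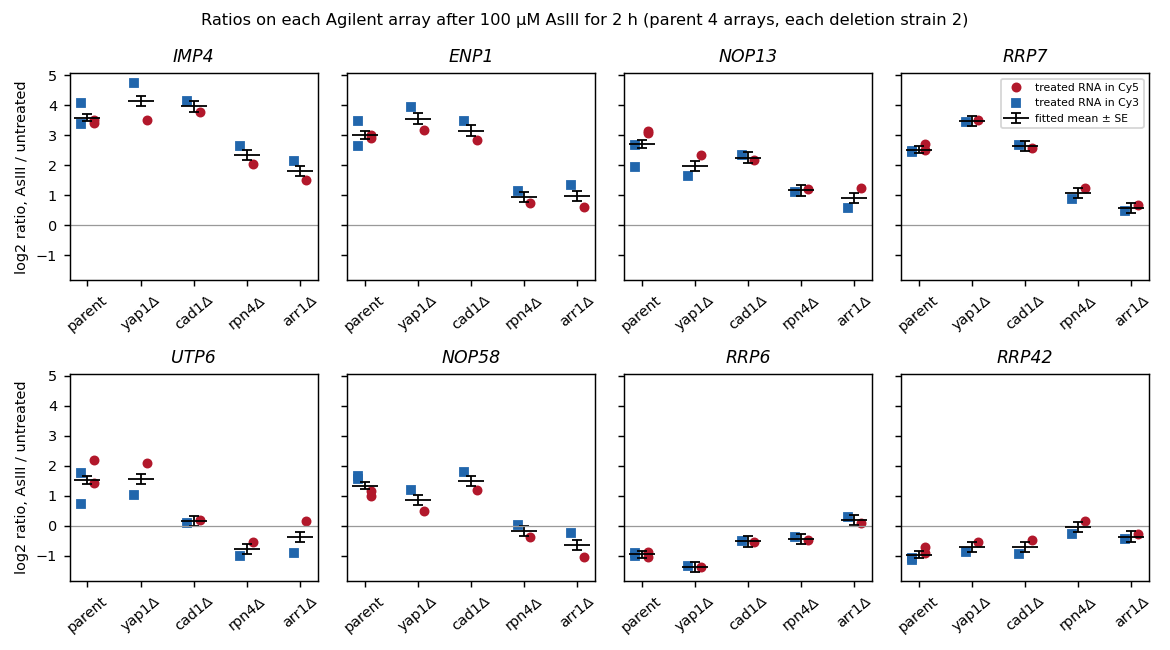
Each panel shows the log2 ratio (AsIII over untreated) of 1 gene on every Agilent array of the parent (4 arrays) and of the yap1, cad1, rpn4 and arr1 deletions (2 each), coloured by the dye of the treated RNA, with the fitted mean and its SE. IMP4, ENP1, NOP13 and RRP7 are above 0 on all 12 arrays and lower in rpn4 and arr1 than in the parent, whereas RRP6 is lowest in yap1 and above 0 only in arr1.

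The AsIII response of each deletion strain was set against that of the parent as a difference of ratios, each over its own untreated cells. Whether the response needs a given transcription factor was not tested. These 4 differences share the parent arrays. In rpn4, 6 members were called higher and 28 lower than in the parent, beside 21.3% and 17.7% of all genes. The median member difference was -0.27 and that of all genes 0.06. In arr1, 8 were higher and 28 lower, beside 28.6% and 25.5% of all genes. The median member difference was -0.28 and that of all genes 0.04. At least 2-fold lower were 13 members in rpn4 and 14 in arr1, and 1 was at least 2-fold higher in each. Of all 5598 genes, 260 were at least 2-fold lower and 274 higher in rpn4, and 599 and 611 in arr1. With the treated RNA in Cy3 alone, 2 were called higher and 16 lower in rpn4 and 3 and 18 in arr1. The differences had an SE of 0.21 for every gene.

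UTP6 differed most in rpn4. Its arrays read -0.54 and -1.01 there against 0.74 to 2.20 in the parent, a difference of -2.31. The other largest falls were those of ENP1 at -2.06, UTP14 at -1.63, NOP13 at -1.55 and NOP58 at -1.52. In arr1, ENP1 differed by -2.03, NOP58 by -1.99, RRP7 by -1.95, UTP6 by -1.89 and NOP13 by -1.79. NOP58 arrays were -0.36 and 0.02 in rpn4 and -1.04 and -0.25 in arr1, all below the parent's lowest of 0.99. NOP56, not called in the parent, fell by 0.99 in rpn4 (arrays -0.92 and -1.06) and by 1.27 in arr1 (arrays -1.20 and -1.34). IMP4 was lower than in the parent by 1.25 and 1.77 on the log2 scale, though it remained the highest member.

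By role, of the 19 other processome genes 11 were lower and 2 higher in rpn4, and 12 and 2 in arr1. UTP-B had 2 of 4 lower in rpn4 and 3 of 4 in arr1, with medians of -0.87 and -1.31. Of the 20 large subunit genes, 9 were lower in rpn4 and 6 in arr1, with 0 and 1 higher. Beside these counts, 21.3% of all genes were called higher and 17.7% lower in rpn4, and 28.6% and 25.5% in arr1. The 6 large subunit genes lower in arr1 were near that share. Of the 7 exosome members 4 were higher in rpn4 and 5 in arr1, none lower in either, with medians of 0.50 and 0.57. The 10 listed exosome subunits and cofactors outside the symbol rule gave other counts, with 0 higher and 1 lower in rpn4 (median -0.13) and 1 higher and 4 lower in arr1 (median 0.05). MPP6, a nuclear exosome cofactor, was the lowest of these at -0.98 and -1.21. RRP46 was at 0.83 and 0.57 in rpn4, above the parent's -0.56 to -0.34, a difference of 1.13. RRP42 differed by 0.91 in rpn4 and by 0.60 in arr1, where it was not called with each array as a replicate. RRP6 was at 0.09 and 0.31 in arr1, above the parent's -1.04 to -0.86, a difference of 1.15, and in rpn4 its difference was 0.52, not called within either dye. UTP20 was higher than in the parent in both strains, by 0.57 and 0.88. RRP36 of the processome was higher by 0.66 in rpn4, and NSA1 and UTP11 by 0.65 and 0.59 in arr1. RRP36, NSA1 and UTP11, and UTP20 in rpn4, were not called on the Cy3 arrays alone.

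In rpn4 5 members went below -1.1 with AsIII: NOP8 at -1.43, NOC4 at -1.36, IMP3 at -1.27, NOC2 at -1.19 and NOC3 at -1.13. IMP3 arrays read -1.20 and -1.33 there, while IMP4, its partner in the Mpp10 complex, rose by 2.33 in the same cells. In arr1 the lowest were NOP56, then NOC3 at -0.79, NOP8 at -0.78, UTP13 at -0.76 and UTP25 at -0.70. Ribosomal protein genes moved with these differences, with 93 of 135 lower than in the parent in rpn4 (median -0.64) and 125 in arr1 (median -1.16), and their part in the members' values was not tested.

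**Figure D4:**
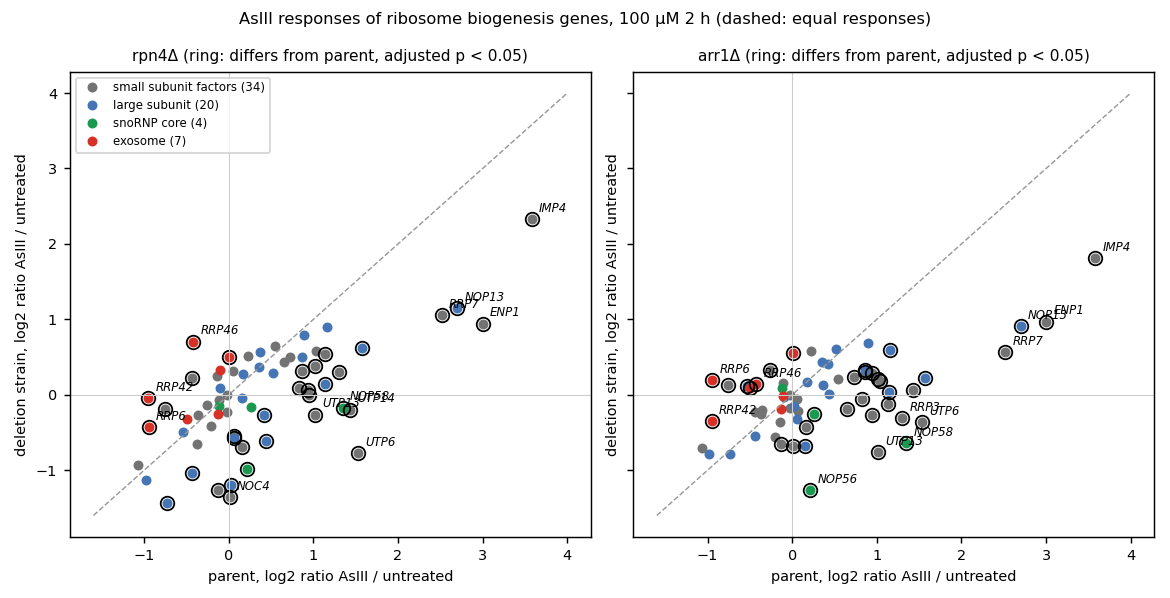
Each point is 1 of 65 genes, with the parent's fitted log2 ratio (AsIII over untreated) on the horizontal axis and that of rpn4 (left) or arr1 (right) on the vertical axis, each over its own untreated cells; the dashed line marks equal responses and rings mark a called difference. IMP4, ENP1, NOP13, RRP7 and UTP6 lie below the line in both panels, and the exosome genes RRP46, RRP42 and RRP6 lie above it.

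In yap1, 2 members were called higher than in the parent and 5 lower, beside 5.39% and 7.36% of all genes, and with the array number as a block these counts were 10 and 8. With each array as a replicate they were 5 and 3, on the Cy5 arrays alone 1 and 3, and on the Cy3 arrays alone 1 and 0. No share of all genes is given for these alternatives. RRP7 arrays of 3.49 and 3.42 all lay above the parent's 2.42 to 2.70, a difference of 0.94 (limma adjusted p = 0.00018). RRP7 was also called with each array as a replicate and within either dye. RRP46 was higher by 0.66. RRP14 (0.47 and 0.99 against 1.45 to 1.70) differed by -0.85, the exosome subunit RRP45 by -0.75, RRP5 by -0.72 and UTP10 by -0.59. NOP13 differed by -0.72, but its arrays overlapped with those of the parent. In cad1, 0 members were called higher and 2 lower, beside 1.75% and 2.48% of all genes, and with the block 3 were higher. With each array as a replicate, or within either dye, 0 were lower. UTP6 was at 0.21 and 0.11 in cad1 against 0.74 to 2.20 in the parent, a difference of -1.37, and its arrays did not overlap, but its parent pairs were apart, at 1.98 and 1.08. NOC4 differed by -0.66 with arrays that overlapped.

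Some members were called in opposite directions in different strains with AsIII. UTP6 rose in the parent and yap1 and fell in rpn4. EBP2, a large subunit factor that binds Rrs1, also rose in the parent, yap1 and cad1 (0.44, 0.48 and 0.60) and fell by 0.61 in rpn4. Its parent pairs were 0.82 and 0.06, and the common SE does not show that gap. UTP13 and NOP58 rose in the parent, yap1 and cad1 and fell in arr1. NOP56 rose in cad1 and fell in rpn4 and arr1, and NOP12, an RNA-binding protein of large subunit maturation, rose in cad1 (0.40) and fell in arr1 (-0.68). In the exosome, RRP46 fell in the parent and cad1 and rose in rpn4, and RRP45 fell by 0.86 in yap1 and rose by 0.37 in cad1.

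Without AsIII, the deletion strains were set against the untreated parent. The untreated RNA of a deletion strain may also be the control of its AsIII arrays, which the labels do not say, so a high value here and a low AsIII ratio in the same strain are not independent. In rpn4, 13 members were higher and 0 lower, beside 10.9% and 11.0% of all genes, with a median of 0.09. On the Cy3 arrays alone 5 were higher, and on the Cy5 arrays alone 2 were lower. The 3 highest were the box C/D proteins. NOP56 had arrays at 1.12 and 0.89, NOP58 at 0.80 and 1.13 and NOP1 at 0.72 and 0.78. All 6 values were above 0.7, and the fitted ratios were 1.01, 0.97 and 0.75 (SE 0.17 each). UTP4 followed at 0.68 and NSA2 at 0.64, whose arrays were apart (0.19 and 1.10), and neither was called with each array as a replicate. Of those that were lowest in rpn4 with AsIII, NOC2, IMP3 and NOC4 were among the 13, at 0.55, 0.52 and 0.44.

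In arr1, 3 members were higher and 10 lower without AsIII, beside 11.8% and 11.5% of all genes, with a median of -0.21 and 14 of 65 above 0. The 3 were NOP56 at 0.68 (arrays 0.77 and 0.58), NOP58 at 0.50 (arrays 0.17 and 0.84) and UTP22 at 0.48. Among the 10, NOP19 had arrays at -0.92 and -0.56, ENP1 at -0.89 and -0.25 and RRP6 at -0.61 and -0.43, with fitted ratios of -0.74, -0.57 and -0.52. IMP3 and NSA1 were at -0.52 each. These counts depend on the dye, since arrays with deletion RNA in Cy5 alone called 1 higher and 16 lower and those in Cy3 alone 1 and 1. Ribosomal protein genes were higher in both strains, 132 of 135 in rpn4 (median 1.27) and 133 of 135 in arr1 (median 1.11), and their part in the members' values was not tested.

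In yap1, 1 member was higher and 0 lower (2.59% and 1.29% of all genes), NOP13 at 0.57, and with the array number as a block 0 were higher. On the Cy5 arrays alone 15 were higher and 7 lower, and on the Cy3 arrays alone 2 were higher. No share of all genes is given for those fits, and over all genes the 2 arrays also went against each other (r = -0.48). UTP4 at 0.49 was next, and NOP19 at -0.35 and RRP14 at -0.20 were lowest. In cad1, 0 were higher and 0 lower (1.71% and 0.965% of all genes), also 0 and 0 at an unadjusted p under 0.05 (232 and 204 of all genes). RRP46 at 0.16 and NOP16 at 0.10 were highest, and UTP15 at -0.31 and UTP6 at -0.28 lowest. In these 2 strains the members' values on the 2 arrays of opposite dye went against each other (r = -0.51 in yap1 and -0.58 in cad1 over 65 genes, a description). In rpn4 and arr1 r was 0.45 and 0.26, and on the AsIII arrays of the same strains it was 0.87 and 0.77.

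**Figure D5:**
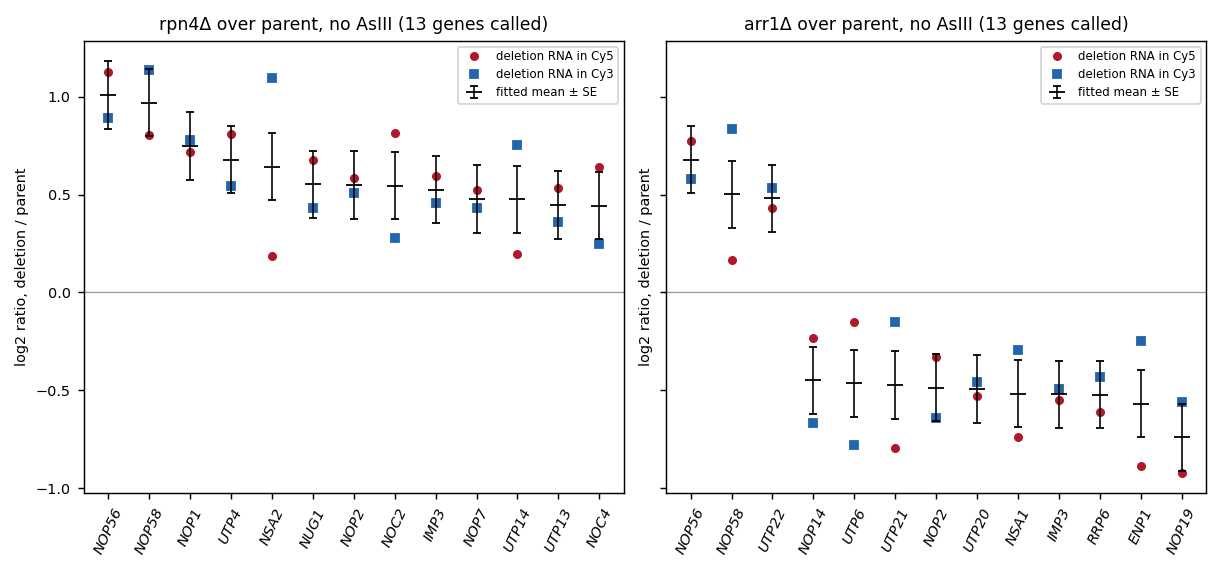
The plot gives the log2 ratio of untreated rpn4 (left) and arr1 (right) cells over the untreated parent for the 13 members called in each, with both arrays coloured by the dye of the deletion RNA and the fitted mean and its SE. NOP56 and NOP58 are the 2 highest in both strains; in arr1 10 of the 13 are below 0.

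Factors outside the symbol rule, taken from lists of the same pathway, moved in ways that can be read beside the members. Of 104 other assembly factors, 55 rose and 27 fell in the parent on Agilent arrays, with a median of 0.37, beside 34.7% and 42.7% of all genes. HCA4 (Dbp4), a processome helicase, was the highest at 4.10, and at 3.29 and 2.24 it was also the highest at 1 mM and at 100 μM for 2 h on the cDNA arrays. TSR3, which modifies small subunit rRNA, was at 3.13 and MRT4, a large subunit factor related to the stalk protein P0, at 2.93. Against the parent, 3 of the 104 were higher and 32 lower in rpn4, led by CGR1 at -1.65, and 15 and 33 in arr1, led by TSR3 at -2.45. Of all genes, 21.3% were higher and 17.7% lower in rpn4, and 28.6% and 25.5% in arr1. Of 17 genes of RNA polymerase I and its factors 11 rose and 4 fell in the parent, with RRN11 and RRN9 highest at 1.27 and 1.26. Of 10 listed exosome subunits and cofactors outside the rule 4 rose and 4 fell, near the shares of all genes, where the core subunit CSL4 was at 1.28 and the poly(A) polymerase PAP2 at 1.20 but AIR2, its partner, at -1.30. MTR4, counted with the other assembly factors, was at 3.49 in yap1, 3.14 in cad1 and 3.02 in rpn4 with AsIII. It was not among the 3 largest of that list in the parent or arr1. Of 16 regulators 3 rose, SCH9 (1.21) and IFH1 (1.14) among them, and 8 fell, with KOG1 of TORC1 lowest at -0.88.

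The 2 platforms measured the same dose and time, 100 μM for 2 h, in different cultures with different RNA preparations. Over 64 members the ratios correlated with r = 0.38 (a description across genes) and 43 had the same sign, or 67.2%, against r = 0.38 and 60.0% over 5513 genes. Member ratios varied less on the cDNA arrays (SD 0.48) than on Agilent (SD 0.94), with medians of 0.15 and 0.19. IMP4 was at 0.92 on cDNA arrays and 3.58 on Agilent, and ENP1 at 0.37 and 3.00. At 1 mM for 30 min on the cDNA arrays r with the Agilent parent was 0.62. Ribosomal protein genes went in opposite directions on the platforms at 2 h, with a median of -1.76 on cDNA arrays and of 0.49 on Agilent, where 108 of 135 rose and 5 fell. Platform, culture and RNA selection cannot be told apart in this contrast.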

How the data were processed

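The deposited cDNA values are log2 ratios (AsIII over control), whose normalization is not given in the sources used here. The deposited Agilent values are log10 ratios of treated over untreated or of deletion over parent cells, made by the authors in Feature Extraction and Resolver, and these were turned into log2. Probes were named by the platform tables, leaving out 1143 of 6720 cDNA and 1605 of 10807 Agilent probes without a gene name. Probes of a gene were averaged. The members had 64 cDNA probes and 107 Agilent probes, whose 42 repeated genes had a median gap of 0.08 between probes (log2, highest 1.75, UTP4). No member value reached the Agilent limit of 2 on the log10 scale.

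Arrays were averaged to 5 culture pairs in 4 cDNA conditions and 10 dye-swap pairs in 9 Agilent conditions. limma 3.58.1 in R 4.3.3 fitted each platform with lmFit and eBayes, two-sided, leaving 1 residual degree of freedom. Its prior SD was 0.31 on cDNA arrays (4.28 prior degrees of freedom) and 0.17 on Agilent arrays (infinite prior degrees of freedom). Intensities were not used here, so depth is unknown. The fit was tested on simulated data.

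On the Agilent arrays, same-numbered arrays, which share a dye orientation, deviated together over 72 pairs of arrays (r from 0.62 to 0.96, median 0.75), so the fit with the array number as a block was set beside results whose counts it moved.

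The members and the gene lists were chosen with earlier results of these data known. Named in each comparison are up to 5 called members of the largest size in each direction with the same sign on all arrays (without overlap for differences); where fewer than 2 were called, the 2 highest and 2 lowest; the extremes of each role; members called in opposite directions; and, of other lists, up to 3 called genes. NOC4, ENP1 at 1 mM, IMP3 and other members beyond this rule were named after their values were seen. Alternatives were centring, arrays as replicates, the replicate block, 1 dye, median probes, calling at a raw p under 0.001 and 2-fold, and leaving out a pair. Sequences were not used here.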

Additional observations from a re-analysis of the deposited data

Results flagged for a closer look

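With AsIII at 100 μM for 30 min, array 3 of RRP43 read -1.05 while the other 3 lay between -0.16 and 0.00, a gap of 0.851 of the range. It was 1 of 32 values tested for an outlying array, and chance gives about 1 in 20.

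The AsIII response of a deletion strain differed from that of the parent, by limma's contrast, for 7 members in yap1, 2 in cad1, 34 in rpn4 and 36 in arr1, all against the same 4 parent arrays. Of all genes, 5.39% were higher and 7.36% lower in yap1, and 1.75% and 2.48% in cad1. In rpn4 these shares were 21.3% and 17.7%, and in arr1 28.6% and 25.5%. The totals of members in yap1, cad1 and arr1 were thus near those of all genes. The members that differed most were RRP7 in yap1 (0.94), UTP6 in cad1 (-1.37), UTP6 in rpn4 (-2.31) and ENP1 in arr1 (-2.03). RRP7 was higher than the parent on both arrays of yap1, and each of the other 3 was below the parent's lowest array on both arrays of its strain. UTP6 in cad1 was not called with each array as a replicate or within either dye.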

How the results depend on the processing

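Counts of members called are given as higher and lower. The shares of all genes called under these alternatives are not given, so the counts cannot be set against them. No direction was reversed under any alternative. Centring each array on its median or taking the median of probes kept all counts within 1.5 times. With each array as a replicate they became 32 and 3 at 1 mM, 10 and 6 at 2 h, 2 and 9 at 4 h, 6 and 3 for 2 h minus 30 min, 4 and 15 for 4 h minus 2 h, and 11 and 3 for 1 mM minus 100 μM. For yap1 minus parent they became 5 and 3, for cad1 minus parent 0 lower, and for untreated yap1 0 higher. That fit counts arrays of the same pair as independent. Adding the array number as a replicate block gave 30 and 3, 10 and 6, 2 and 10, 6 and 7, 5 and 19, and 16 and 5 in the same order of cDNA results. The block also gave 10 and 8 for yap1 minus parent, 3 higher for cad1 minus parent and 0 higher for untreated yap1, and moved no other count by over 1.5 times. On cDNA arrays same-numbered arrays also share a dye orientation, but not every pair deviated together (r from -0.14 to 0.71, median 0.465, 40 pairs of arrays), so the block is given here alone.

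With the treated or deletion RNA in Cy5 only, 3 were lower at 2 h, 1 lower at 4 h, 1 and 3 were called for yap1 minus parent and 0 lower for cad1 minus parent. Untreated, the Cy5 arrays gave 15 and 7 in yap1, 2 lower in rpn4, and 1 and 16 in arr1. With Cy3 only, 1 was lower at 1 mM, 0 higher at 2 h, 7 higher in arr1 with AsIII, and the differences from the parent were 1 and 0 in yap1, 0 lower in cad1, 2 and 16 in rpn4, and 3 and 18 in arr1. Untreated, the Cy3 arrays gave 2 higher in yap1, 5 higher in rpn4, and 1 and 1 in arr1. The cause of these shifts was not tested.

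An unadjusted p under 0.001 with at least a 2-fold change, a stricter size limit, left 3 higher at 1 mM, 0 higher at 2 h, 15 and 1 in the parent, 14 and 1 in yap1, 17 and 2 in cad1, 3 and 6 in rpn4, and 1 and 1 in arr1. For differences from the parent it left 0 and 0 in yap1, 1 lower in cad1, 1 and 13 in rpn4, and 1 and 14 in arr1. Untreated, it left 0 higher in yap1, 1 higher in rpn4, and 0 and 0 in arr1.

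Leaving out a pair removes the residual degree of freedom, so only values result. Without the second culture pair the 1 mM median was 0.42 with 10 members at least 2-fold up, where all arrays gave 0.30 and 5. For 1 mM minus 100 μM, 5 members were 2-fold up with both pairs, 3 without the first and 9 without the second, and the median was 0.30 without the second. Without the second dye-swap pair the parent median was 0.24, and without the first 2 members were 2-fold down in place of 1. For cad1 minus parent 0 members were 2-fold down without the first pair and 2 without the second, in place of 1. For yap1 minus parent 1 was 2-fold up and 1 down without the second, in place of 0 and 0, and the rpn4 minus parent median was -0.32 without the first.

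Errors rest on 2 culture pairs (cDNA) or on 2 parent dye-swap pairs (Agilent) and are assumed to hold for conditions with a single pair. The common Agilent SE does not show genes whose arrays disagree, such as NOC4. Untreated yap1 and cad1 values disagreed between dyes. Motifs in promoters were not run.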
